A study of Mus musculus with 6 samples.

Results

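The ADAM and ADAMTS metalloproteases were described here in cortex of stroke-injured mice given NeuroD1 or green fluorescent protein (GFP). Members were all rows of the count table whose symbol starts with Adam, Adamts or Adamtsl followed by a digit, which gave 57 of 24421 gene symbols: 33 ADAM, 19 ADAMTS and 5 ADAMTS-like genes. The samples were 6 bulk RNA sequencing libraries of C57BL/6 cortex, 3 labelled GFP_MCAO and 3 labelled NeuroD1_MCAO. MCAO is middle cerebral artery occlusion, a surgical model of ischaemic stroke, and both groups had it, so no uninjured cortex is compared. NeuroD1 is a proneural transcription factor, and the series title names intravenous gene therapy as the route. The labels do not name the vector, its promoter, the dose, the time after stroke, or the age and sex of the mice. Nothing in the labels says that each library came from a separate mouse, so p-values measure only the spread between these libraries.

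ADAMs are membrane proteins with a metalloprotease domain outside the cell, and many of them act as sheddases, which cut the outer part of receptors, ligands and adhesion molecules away from the cell surface. ADAMTS proteins are secreted proteases of the extracellular matrix. Their known targets include the lecticans of brain matrix, procollagens and von Willebrand factor. ADAMTS-like proteins share the matrix-binding domains but have no protease domain, and some ADAMs have lost protease activity and act in adhesion instead.

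The zinc-binding site that holds the catalytic metal marks the members that can be active proteases. The site searched for in each member's longest coding sequence in GENCODE M21 (GRCm38) had 11 residues, with histidine at positions 1, 5 and 11, glutamate at position 2, and glycine, asparagine or serine at position 8. It was found in 39 of 57 members, which were 20 of the 33 ADAMs, all 19 ADAMTS genes and 0 of the 5 ADAMTS-like genes. Adam11, Adam22 and Adam23, the ADAMs best known from neurons, lacked it. Position 8 held glycine in all 20 of those ADAMs and in 13 ADAMTS genes, asparagine in Adamts1, Adamts4, Adamts9, Adamts15 and Adamts20, and serine in Adamts8. The coding bases of the site (33 bases, 5′ to 3′ in the sense of the gene) are shown for the 6 protease genes that led the higher members and, for comparison, for 2 members with asparagine. Capitals mark the codons of the histidines and of the glutamate.
Adam8: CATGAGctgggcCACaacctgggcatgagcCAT
Adam9: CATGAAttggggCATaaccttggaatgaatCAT
Adam10: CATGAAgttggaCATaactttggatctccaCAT
Adam12: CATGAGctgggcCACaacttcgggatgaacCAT
Adam17: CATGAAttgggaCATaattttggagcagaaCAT
Adamts12: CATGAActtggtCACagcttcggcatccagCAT
Adamts1: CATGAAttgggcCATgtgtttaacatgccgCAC
Adamts20: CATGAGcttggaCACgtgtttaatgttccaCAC

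All of these sites are exonic, and 4 of them lie within a single exon: Adam8 at chr7:139987893-139987925 (minus strand, exon 11), Adam9 at chr8:24990326-24990358 (minus, exon 11), Adam12 at chr7:133961158-133961190 (minus, exon 11) and Adam17 at chr12:21336732-21336764 (minus, exon 12). The site of Adam10 is split between exons 9 and 10 (chr9:70754296-70761585, plus), that of Adamts12 between exons 7 and 8 (chr15:11241529-11255564, plus), that of Adamts1 between exons 3 and 4 (chr16:85799191-85799545, minus) and that of Adamts20 between exons 8 and 9 (chr15:94353678-94355296, minus).

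Total counts were 7753101 to 9698795 in the GFP libraries and 10843273 to 13440244 in the NeuroD1 libraries, so every NeuroD1 library was deeper. Levels below are CPM, read counts scaled to a common library size by the TMM method. Neurod1 itself read 6.48, 3.87 and 5.43 CPM in GFP replicates 1 to 3 and 48.5, 14.6 and 38.4 CPM in NeuroD1 replicates 1 to 3. All 8 neuronal markers checked were detected in every library, with a summed level of 1947 to 6075 CPM.

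The members with the largest higher fitted levels with NeuroD1 were the matrix protease gene Adamts12 (9.88-fold) and the membrane sheddase genes Adam8 (5.26-fold) and Adam12 (3.51-fold). Those with the largest lower levels were Adam1a (3.87-fold) and Adamts20 (2.70-fold). None of these differences passed the adjusted test of the main method. Of the 57 members, 36 had enough counts to be tested, 9 had between 2 and 64 counts over the 6 libraries, and 12 had 0 counts in all of them. With Benjamini-Hochberg adjustment over all 14852 tested genes, 0 of the 36 members passed the quasi-likelihood test of edgeR at 0.05, and 0 of all tested genes did (background 0%); at an unadjusted p under 0.05 there were 16 members and 3564 genes, and DESeq2 called 10 members and 1366 genes. The smallest adjusted p among members, 0.136, was also the smallest of all genes. At an unadjusted p under 0.05, 9 members were higher (25%, against 12.5% of all tested genes) and 7 were lower (19.4%, against 11.5%). These shares over all tested genes are also the background for the counts by role and gene list below. The levels of the groups did not overlap for 8 members that were higher (22.2%, against 14.2%) and 6 that were lower (16.7%, against 15.3%). DESeq2, run as an alternative, gave an adjusted p under 0.05 for 6 higher and 4 lower members of the 39 it adjusted, or 15.4% and 10.3%, against 5.04% and 3.87% of all genes it adjusted. The DESeq2 adjusted p is printed below only for these 10 members. For the other members with an unadjusted edgeR p under 0.05 it was 0.14 (Adam19), 0.152 (Adamts2), 0.156 (Adamts7), 0.136 (Adamts16), 0.0911 (Adamts17) and 0.104 (Adamtsl4). The median log2 fold change of the 36 members was 0.18, beside 0.02 for all tested genes. Leaving out either GFP replicate 2 or NeuroD1 replicate 1 brought the unadjusted count of 16 members to 10.

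**Figure D1:**
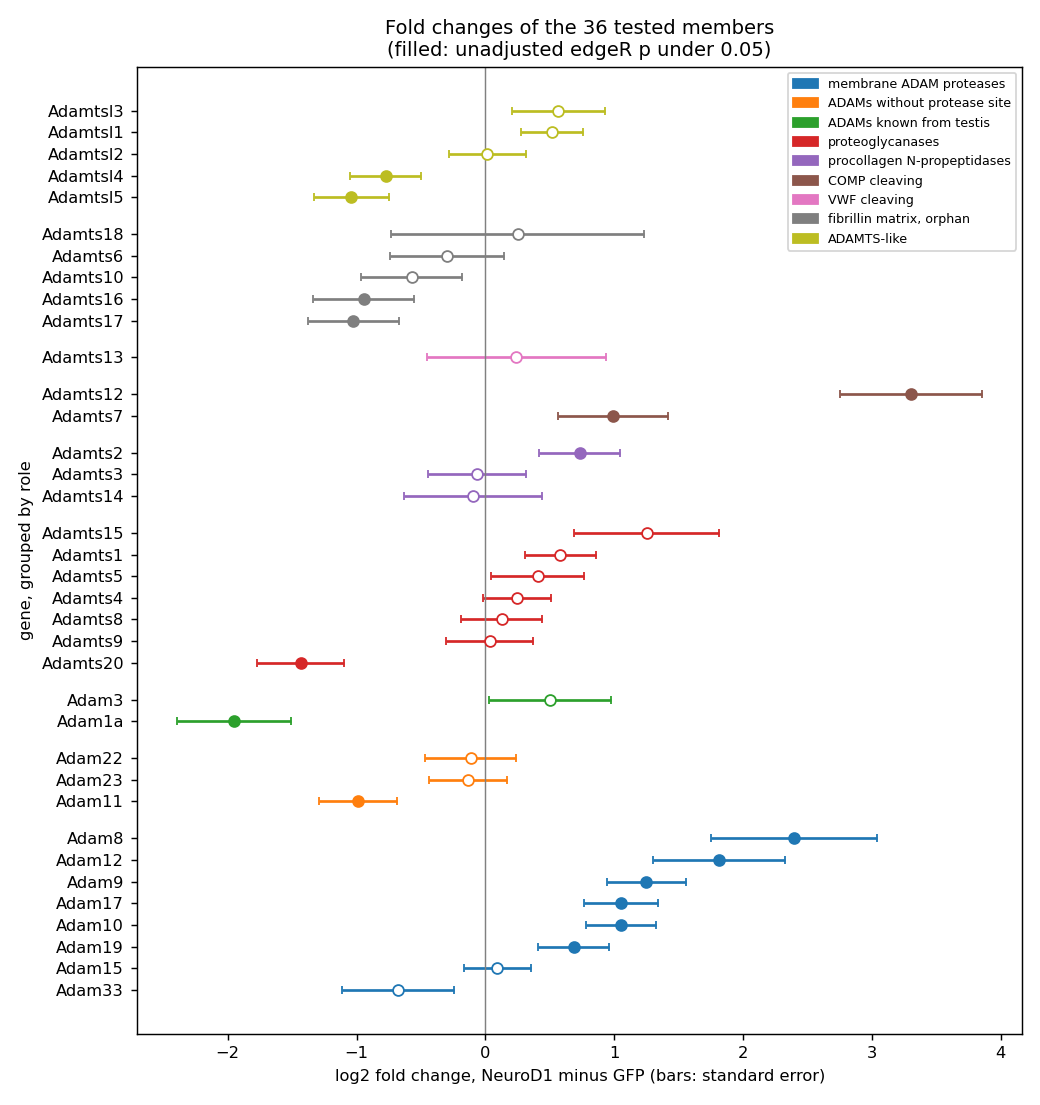
Log2 fold change (NeuroD1 minus GFP, x axis) of each of the 36 tested members, with its standard error as a bar, grouped and coloured by role. Filled points have an unadjusted edgeR p under 0.05: 6 of 8 membrane ADAM proteases are filled on the higher side, and Adamts12 lies farthest to the right at 3.31.

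Among the membrane ADAM proteases, 7 of the 8 tested members had a higher fitted level with NeuroD1, and 6 of them an unadjusted p under 0.05. Adam10 is the constitutive sheddase of Notch, N-cadherin and the amyloid precursor protein. It read 150.6, 91.8 and 103.4 CPM in GFP replicates 1 to 3 and 267.8, 267.4 and 181.5 CPM in NeuroD1 replicates 1 to 3. Every NeuroD1 library was above every GFP library. The difference was 2.07-fold (log2 1.05, SE 0.27; edgeR adjusted p = 0.136, DESeq2 adjusted p = 0.0094).

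Adam17, the sheddase of tumour necrosis factor and of its receptors, read 67.3, 54.0 and 56.0 CPM with GFP and 128.3, 163.5 and 75.8 CPM with NeuroD1. The groups did not overlap, although NeuroD1 replicate 3 lay closest to the GFP range. The fold was 2.07 (log2 1.05, SE 0.29; edgeR adjusted p = 0.138, DESeq2 adjusted p = 0.02). On the opposite strand an exon of Iah1 overlaps Adam17. Iah1 had 114 to 136 raw counts with GFP and 150 to 182 with NeuroD1, where every library was deeper, so these ranges do not compare the groups. They are far fewer than the 404 to 1703 counts of Adam17.

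Adam9, a widely expressed sheddase, read 99.4, 63.0 and 71.6 CPM with GFP and 198.5, 238.1 and 119.9 CPM with NeuroD1. As with Adam10 and Adam17, all NeuroD1 libraries were above all GFP libraries and NeuroD1 replicate 3 was the lowest of its group. The fold was 2.38 (log2 1.25, SE 0.30; edgeR adjusted p = 0.136, DESeq2 adjusted p = 0.00584). Adam9 lies 0.8 kb from Adam32 on chromosome 8, a gene known from testis. Adam32 was too low to be tested (4, 14 and 14 counts with GFP, 1, 7 and 5 with NeuroD1).

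Adam8 is a protease of myeloid cells such as macrophages and neutrophils. It read 21.5, 46.2 and 46.3 CPM with GFP and 123.4, 408.3 and 67.0 CPM with NeuroD1, so NeuroD1 replicate 2 was far above the other libraries. The groups did not overlap, and the fold was 5.26 (log2 2.39, SE 0.64; edgeR adjusted p = 0.138, DESeq2 adjusted p = 0.00366). Without NeuroD1 replicate 2 it was 2.51-fold (log2 1.33; edgeR adjusted p = 0.153). Of the infiltrating myeloid markers, 5 of the 7 tested (8 listed) were higher at an unadjusted p under 0.05. Their summed level was 54.3 to 100.4 CPM with GFP and 178 to 521 CPM with NeuroD1, highest in NeuroD1 replicate 2. F13a1 was the largest part of each NeuroD1 sum, at 138.4, 303.6 and 70.0 CPM in replicates 1 to 3. Ccr2 (19.6, 19.4 and 9.51 CPM) and Ly6c2 (4.59, 4.35 and 4.22 CPM) were not highest in NeuroD1 replicate 2. Of the neutrophil genes in the list, S100a9 had at most 1.06 CPM in a library. S100a8 read 1.32, 1.07 and 2.83 CPM with GFP and 3.16, 14.0 and 1.44 CPM with NeuroD1, highest in the library where Adam8 was highest (log2 1.81, SE 0.82; edgeR adjusted p = 0.218), and its log2 fold change was 0.41 without that library. By the same criterion 0 of 8 microglial markers were higher and 1 was lower, with sums of 2542 to 3104 and 3028 to 4412 CPM. The part of myeloid cells in the Adam8 difference was not tested. In bulk tissue, fewer cells of a type and less RNA per cell cannot be told apart.

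Adam12, a protease of mesenchymal cells, read 16.6, 11.4 and 19.6 CPM with GFP and 51.4, 96.1 and 19.7 CPM with NeuroD1. NeuroD1 replicate 3 was barely above the highest GFP library. The fold was 3.51 (log2 1.81, SE 0.51; edgeR adjusted p = 0.139, DESeq2 adjusted p = 0.0111), and 2.25 without NeuroD1 replicate 2. Adam19, which is known from heart and neural crest development, overlapped between groups at 11.9 to 21.1 CPM with GFP and 20.0 to 29.3 CPM with NeuroD1. Its fold was 1.61 (edgeR adjusted p = 0.189), and its unadjusted p was under 0.05 in 2 of the 6 fits that left out a library.

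Adam15, a disintegrin found on endothelial and other cells, was the most abundant member per transcript length and differed little. It read 182.2, 238.6 and 232.7 CPM with GFP and 189.6, 308 and 199.7 CPM with NeuroD1, a log2 fold change of 0.09 (SE 0.26; edgeR adjusted p = 0.843). Its sign turned without GFP replicate 1 or NeuroD1 replicate 2. Adam33 had a log2 fold change of -0.68 (SE 0.43; edgeR adjusted p = 0.352), and Adam28, a protease of lymphocytes and epithelia, had 2 counts in all.

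**Figure D2:**
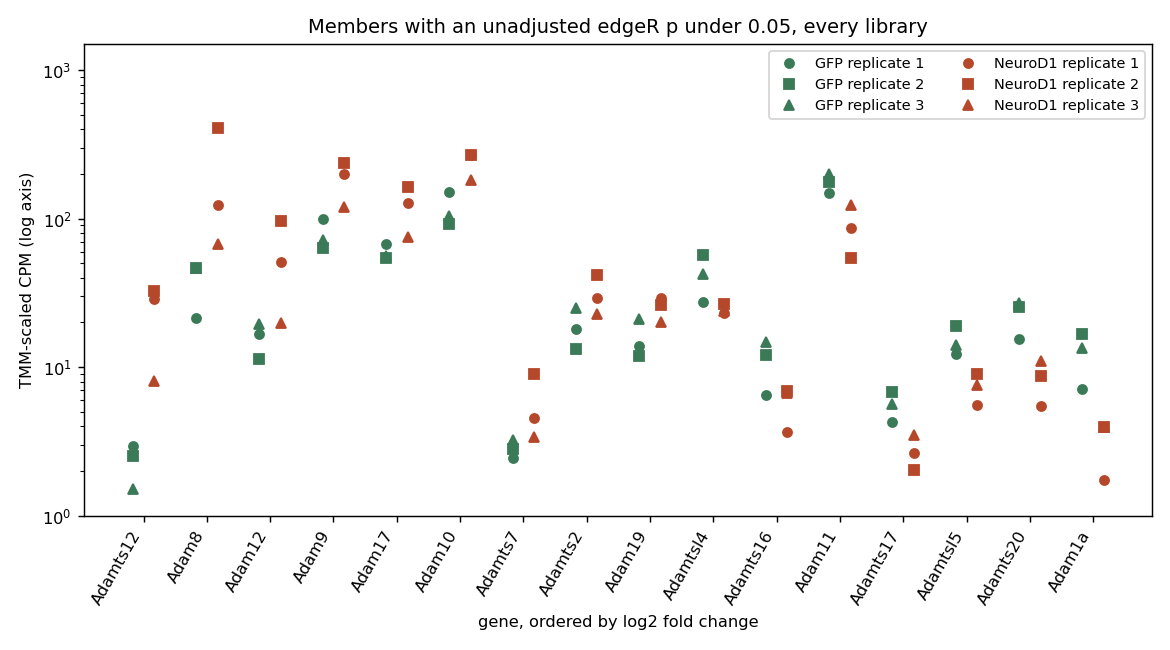
TMM-scaled CPM (log axis) of the 16 members with an unadjusted edgeR p under 0.05 in every library, ordered by fold change. Colour gives the group and the symbol the replicate: Adamts12 is at 1.52 to 2.94 CPM in the GFP libraries and 8.08 to 32.6 CPM in the NeuroD1 libraries, and NeuroD1 replicate 2 has the highest Adam8 level, 408.3 CPM.

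Adam11, Adam22 and Adam23 encode ADAMs of neurons without the protease site, and ADAM22 and ADAM23 act as receptors for secreted LGI proteins at synapses and along axons. Adam22, the receptor of LGI1 at excitatory synapses, read 162, 102.3 and 178.5 CPM with GFP and 176.3, 74.7 and 157.9 CPM with NeuroD1. Adam23, its relative on the presynaptic side, read 137.4, 75.7 and 93.6 CPM with GFP and 109.4, 62.1 and 108 CPM with NeuroD1. For both genes replicate 2 was the lowest library of each group, and the groups overlapped. In the same libraries the summed neuronal markers were also lowest (2867 CPM in GFP replicate 2 and 1947 CPM in NeuroD1 replicate 2). The log2 fold changes were -0.12 (SE 0.35) and -0.13 (SE 0.30), with edgeR adjusted p = 0.859 and 0.805, and both turned sign without NeuroD1 replicate 2 (0.18 and 0.09); Adam22 also did without GFP replicate 3 and Adam23 without GFP replicate 1.

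Adam11, the third member of this kind in brain, was lower with NeuroD1. It read 149.6, 176.3 and 199.2 CPM with GFP and 87.0, 54.6 and 122.9 CPM with NeuroD1, with no overlap. That is 1.99-fold lower (log2 -0.99, SE 0.31; edgeR adjusted p = 0.141, DESeq2 adjusted p = 0.0463). Among the GFP libraries Adam11 was lowest in replicate 1, unlike Adam22 and Adam23. Among the NeuroD1 libraries it was lowest in replicate 2, as they were. Without NeuroD1 replicate 2 its log2 fold change was -0.73. The part of neurons in the Adam11 difference was not tested. Summed neuronal markers overlapped between the groups, and 1 of 8 was higher at an unadjusted p under 0.05, at 2867 to 5268 CPM with GFP and 1947 to 6075 CPM with NeuroD1.

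Of 11 LGI ligands and partner genes of ADAM22 and ADAM23, 0 were higher and 2 lower at an unadjusted p under 0.05. The shares over all tested genes were 12.5% higher and 11.5% lower. Lgi4, a ligand made by glia, was 1.95-fold lower (log2 -0.96, SE 0.25) and Lgi3 was 1.58-fold lower (log2 -0.66, SE 0.25), with edgeR adjusted p = 0.136 and 0.177. The potassium channel organiser Cntnap2 had a log2 fold change of 0.81 (SE 0.46; edgeR adjusted p = 0.303).

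Substrates and partners of the membrane sheddases come next. Of 26 tested substrates of ADAM10 and ADAM17, 6 were higher and 0 lower at an unadjusted p under 0.05, with a list median of 0.30. Over all tested genes, 12.5% were higher and 11.5% lower. The hyaluronan receptor gene Cd44 was 2.52-fold higher (46.9 to 55.1 CPM with GFP, 79.4 to 189.1 CPM with NeuroD1). The tumour necrosis factor receptor gene Tnfrsf1b was also 2.52-fold higher (61.5 to 75.9 against 97.1 to 268.3 CPM), and the interleukin 6 receptor gene Il6ra 2.42-fold (8.82 to 21.8 against 24.4 to 38.9 CPM). None of these 3 genes overlapped between groups, and their edgeR adjusted p-values were 0.136, 0.137 and 0.141. Of 14 tested trafficking and activation partners, 2 were higher and 1 lower, which is near the shares over all tested genes (12.5% and 11.5%). Snx9, a sorting nexin that binds ADAM tails, was 2.09-fold higher, Sh3d19, an adaptor of the same kind, 1.36-fold higher, and Rhbdf1, an iRhom that carries ADAM17 to the cell surface, 1.60-fold lower (edgeR adjusted p = 0.141, 0.193 and 0.157).

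Adamts12 and Adamts7 form the class that cleaves cartilage oligomeric matrix protein. Adamts12 read 2.94, 2.54 and 1.52 CPM with GFP and 28.8, 32.6 and 8.08 CPM with NeuroD1. Its lowest NeuroD1 library was above its highest GFP library, and no member had a larger fold change. The difference was 9.88-fold (log2 3.31, SE 0.55), with an edgeR adjusted p of 0.136 and a DESeq2 adjusted p of 1.68e-06. GFP libraries held 14 to 29 Adamts12 counts, so the GFP level rests on few reads. Left-out libraries gave log2 fold changes from 2.99 to 3.72. Adamts7, the other member of the class, read 2.43, 2.80 and 3.26 CPM with GFP and 4.52, 8.999 and 3.41 CPM with NeuroD1. Its fold was 1.98 (log2 0.99, SE 0.43; edgeR adjusted p = 0.204) with all libraries and 1.41 without NeuroD1 replicate 2. Its unadjusted p was under 0.05 in only 1 of the 6 fits that left out a library, and not under upper quartile scaling, limma-voom, the replicate block or the length and GC offsets. An exon of Tbc1d2b overlaps Adamts7 on the opposite strand and had 307 to 857 counts, far more than the 21 to 93 of Adamts7, so the Adamts7 level is uncertain.

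Of 7 tested fibroblast markers (8 listed), 6 were higher at an unadjusted p under 0.05, and their summed level was 762.8 to 1540 CPM with GFP and 1431 to 5763 CPM with NeuroD1, so the sums overlapped. NeuroD1 replicate 3 had the lowest sum of its group, as it had the lowest Adam12 and Adamts12 levels. This is not particular to fibroblasts. The same library was lowest of its group for the summed infiltrating myeloid (178 CPM), cycling-cell (211.3 CPM) and microglial (3028 CPM) markers. It was also lowest for Adam8, Adam9, Adam10 and Adam17. For the summed neuronal, astrocyte, endothelial and oligodendrocyte markers it was the highest of its group. The marker Dpt was at or near 0 throughout, with at most 0.53 CPM in a library. The part of fibroblasts in the Adam12 and Adamts12 differences was not tested.

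Procollagen N-propeptidases trim fibrillar procollagens before they assemble, and Adamts3 also cleaves reelin in brain. Adamts2 read 18.0, 13.4 and 24.99 CPM with GFP and 29.2, 41.9 and 22.7 CPM with NeuroD1, so the groups overlapped. Its fold was 1.66 (log2 0.73, SE 0.31; edgeR adjusted p = 0.2), and 1.39 without NeuroD1 replicate 2. Adamts3 read 9.32, 9.08 and 16.6 CPM with GFP and 14.2, 6.39 and 12.8 CPM with NeuroD1, a log2 fold change of -0.06 (SE 0.38). Adamts14 was at -0.09 (SE 0.54). Among 15 collagens and other matrix substrates, 9 were higher and 1 lower at an unadjusted p under 0.05, with a median of 1.24. Over all tested genes, 12.5% were higher and 11.5% lower. Col1a1, Col1a2 and Col3a1 are in both this list and the fibroblast markers, so the counts of these lists share genes. Thbs1, which encodes an inhibitor of angiogenesis, was 11.6-fold higher (14.0 to 18.4 CPM with GFP, 71 to 385.9 CPM with NeuroD1), and 5.70-fold without NeuroD1 replicate 2. The fibrillin gene Fbn1 was 3.20-fold higher and the collagen gene Col5a2 2.72-fold. The edgeR adjusted p was 0.136 for each of these 3 genes.

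Proteoglycanases, which cut the lecticans of perineuronal nets and glial scar, mostly did not differ beyond their spread. Of the 7, 6 had higher fitted levels with none at an unadjusted p under 0.05, and Adamts20 was lower. Adamts1 read 29.1, 26.8 and 27.1 CPM with GFP and 48.4, 50.6 and 25.2 CPM with NeuroD1. NeuroD1 replicate 3 lay below all 3 GFP libraries, and the log2 fold change was 0.58 (SE 0.28; edgeR adjusted p = 0.237). Adamts4, which oligodendrocytes express, read 32.9, 34.6 and 21.9 CPM with GFP and 45.2, 31.7 and 28.9 CPM with NeuroD1 (log2 0.24, SE 0.26; edgeR adjusted p = 0.574). Adamts5 read 4.86, 5.48 and 6.41 CPM with GFP and 6.63, 10.8 and 4.76 CPM with NeuroD1 (log2 0.41, SE 0.36; edgeR adjusted p = 0.492). Adamts1 and Adamts5 lie 53.1 kb apart on chromosome 16.

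Adamts20, known from melanoblast and palate development, read 15.4, 25.5 and 27.1 CPM with GFP and 5.50, 8.71 and 10.95 CPM with NeuroD1. No NeuroD1 library reached the lowest GFP library. It was 2.70-fold lower (log2 -1.43, SE 0.33; edgeR adjusted p = 0.136, DESeq2 adjusted p = 0.0063). Adamts15 lies 20.1 kb from Adamts8 on chromosome 9. Adamts15 read 6.18, 8.82 and 11.1 CPM with GFP and 17.2, 38.4 and 6.64 CPM with NeuroD1, so the groups overlapped (log2 1.25, SE 0.56; edgeR adjusted p = 0.216). Its fold was 2.38 with all libraries and 1.38 without NeuroD1 replicate 2. For Adamts8 the log2 difference was 0.13 (SE 0.31).

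The list of matrix targets of these enzymes held lecticans, small proteoglycans, link proteins, reelin and tenascin-R. Of these 11 genes, 4 were higher at an unadjusted p under 0.05 (the lectican gene Vcan, the small proteoglycan gene Dcn, Reln and Tnr). By the same criterion 2 were lower (Bcan and Hapln2). Over all tested genes, 12.5% were higher and 11.5% lower. Dcn is also one of the fibroblast markers above. The edgeR adjusted p was 0.174 for Reln, 0.192 for Tnr and 0.141 for Dcn, and these 3 were named after their values were seen. Bcan, the brain-specific lectican, read 348.4 to 433 CPM with GFP and 133.6 to 231.7 CPM with NeuroD1, 2.28-fold lower. Vcan, the lectican of developing and injured tissue, read 41.8 to 42.1 CPM with GFP and 64.4 to 97.1 CPM with NeuroD1, 1.85-fold higher. Hapln2, a link protein of nodes of Ranvier, was 2.90-fold lower. Their edgeR adjusted p-values were 0.136, 0.136 and 0.138.

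Of the genes of tissue inhibitors and other protease inhibitors, 2 of 8 were higher and 3 lower at an unadjusted p under 0.05. Over all tested genes, 12.5% were higher and 11.5% lower. Timp2 read 613.5 to 650.2 CPM with GFP and 965.6 to 1382 CPM with NeuroD1, 1.78-fold higher. Timp4 was 1.95-fold lower (27.5 to 38.5 against 10.3 to 23.8 CPM), and Cst3, the astrocyte-rich cystatin C gene, 1.91-fold lower. The edgeR adjusted p-values were 0.142, 0.147 and 0.148.

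Adamts13, the protease that trims von Willebrand factor in blood, was near the limit of counting. It read 1.01, 0.40 and 0.76 CPM with GFP and 1.05, 0.19 and 1.35 CPM with NeuroD1, from 2 to 15 counts a library (log2 0.24, SE 0.70; edgeR adjusted p = 0.848). The standard error exceeds the difference.

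Members tied to fibrillin microfibrils and orphan members form the next group. Of 5 tested, 4 had lower fitted levels, and 2 of them an unadjusted p under 0.05. Adamts17 read 4.25, 6.81 and 5.65 CPM with GFP and 2.64, 2.03 and 3.50 CPM with NeuroD1, with no overlap, 2.03-fold lower (log2 -1.02, SE 0.36; edgeR adjusted p = 0.157). Adamts16 read 6.48, 12.02 and 14.8 CPM with GFP and 3.69, 6.87 and 6.73 CPM with NeuroD1, overlapping at GFP replicate 1 (log2 -0.95, SE 0.39; edgeR adjusted p = 0.192). Each had an unadjusted p under 0.05 in 2 of the 6 fits that left out a library.

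ADAMTS-like genes encode matrix proteins without enzyme activity, and 2 of 5 were lower at an unadjusted p under 0.05. Adamtsl5 read 12.4, 18.97 and 14.1 CPM with GFP and 5.57, 8.999 and 7.54 CPM with NeuroD1, 2.05-fold lower (log2 -1.04, SE 0.29; edgeR adjusted p = 0.139, DESeq2 adjusted p = 0.0277). Adamtsl4, which supports the fibres that hold the lens, read 27.3, 56.9 and 42.2 CPM with GFP and 23.1, 26.8 and 23.9 CPM with NeuroD1. The groups did not overlap, but GFP replicate 1 lay next to the NeuroD1 range (log2 -0.77, SE 0.28; edgeR adjusted p = 0.161). Adamtsl1 was higher without overlap, at 6.48 to 7.35 CPM with GFP and 9.07 to 10.7 CPM with NeuroD1 (log2 0.51, SE 0.24; edgeR adjusted p = 0.233).

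Most ADAM genes known from testis and sperm had few or no reads. Of 21 such rows, 12 were at 0 in every library, which allows up to 3 counts, or 0.223 to 0.387 CPM, in a library. Adam1a, known from sperm, had enough reads to be tested. It read 7.09, 16.7 and 13.5 CPM with GFP and 1.73, 3.97 and 3.95 CPM with NeuroD1, 3.87-fold lower (log2 -1.95, SE 0.44; edgeR adjusted p = 0.136, DESeq2 adjusted p = 0.00295). All NeuroD1 libraries were below all GFP libraries. Exons of Mapkapk5 on the same strand and of Tmem116 on the other overlap the Adam1a model. Mapkapk5 had 331 to 383 raw counts with GFP and 361 to 439 with NeuroD1. These counts are not scaled to depth, and every NeuroD1 library was deeper, so they do not compare the groups. Assignment of reads between these genes makes the Adam1a level uncertain. The zinc-site bases of Adam1a and its neighbour Adam1b are identical at all 33 positions, and Adam1b had at most 1 count in a library. Adam3 was also tested (log2 0.50, SE 0.47).

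**Figure D3:**
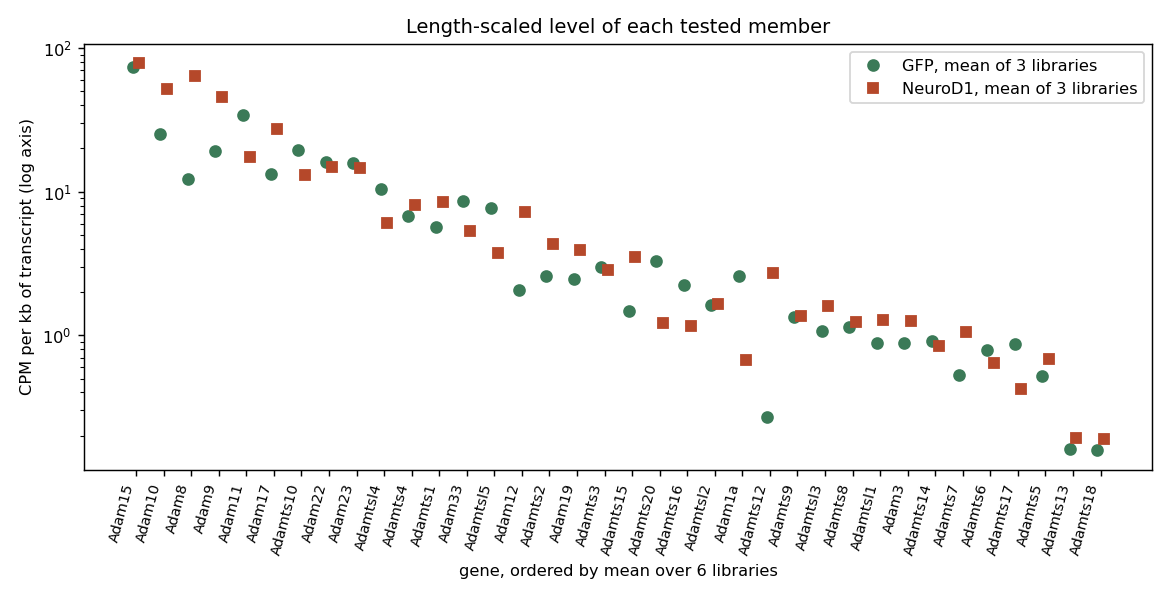
CPM per kb of the longest transcript (log axis) for each tested member, as the mean of 3 GFP and of 3 NeuroD1 libraries, ordered by the mean over all 6. Adam15 is highest in both groups, and Adamts12 shows the widest gap between groups (0.27 with GFP, 2.70 with NeuroD1).

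Scaled by transcript length, the levels of the members ranged widely. Adam15 averaged 73.2 CPM per kb with GFP and 78.1 with NeuroD1. With GFP it was followed by Adam11 at 34.3, Adam10 at 25.1, Adamts10 at 19.5 and Adam9 at 19.3 CPM per kb. With NeuroD1 it was followed by Adam8 at 64.0, Adam10 at 52.0, Adam9 at 45.9 and Adam17 at 27.4 CPM per kb. Adam8 itself was at 12.2 CPM per kb with GFP, and its NeuroD1 mean carries NeuroD1 replicate 2.

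Members with and without the protease site are set side by side as a description. Of the 9 tested ADAMs with the site, 6 were higher and 1 lower at an unadjusted p under 0.05 (all tested genes: 12.5% and 11.5%). Of the 4 tested ADAMs without it, 0 were higher and 1 lower. Of the 18 tested ADAMTS genes, 3 were higher and 3 lower, which is near the shares over all tested genes (12.5% and 11.5%). The groups are small, and the difference between them was not tested.

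The libraries of a group did not contribute evenly. The median log2 difference of the 36 members from their GFP means was 0.27 in NeuroD1 replicate 1. It was 0.37 in replicate 2 and 0.000305 in replicate 3, with 0.1 CPM added before taking logs. Neurod1 itself read 48.5, 14.6 and 38.4 CPM in NeuroD1 replicates 1 to 3. The shift was largest where Neurod1 was lowest of the 3, and a link was not tested. A chi-square per gene compared raw counts of 2 libraries, and it grows with depth. For NeuroD1 replicate 3 it was 29.1, 105 and 34.9 with GFP replicates 1 to 3. With NeuroD1 replicates 1 and 2 it was 38.1 and 126. Of the 16 members with an unadjusted p under 0.05, 10 kept it whichever library was left out: Adam8, Adam9, Adam10, Adam11, Adam12, Adam17, Adam1a, Adamts12, Adamts20 and Adamtsl5.

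Beside the members that were lower, markers of several other cell types were lower too. At an unadjusted p under 0.05, 7 of 9 endothelial markers were lower (summed level 570.2 to 847.6 CPM with GFP, 212.8 to 438.8 CPM with NeuroD1), as were 6 of 8 of ependyma and choroid plexus (107.5 to 884.1 against 27.6 to 100.8 CPM) and 4 of 8 of oligodendrocytes (10910 to 20980 against 7087 to 9546 CPM). Of 8 markers of pericytes and smooth muscle, 4 were lower (Myh11, Acta2, Higd1b and Kcnj8) and 1 higher (Cspg4), with overlapping sums of 323.8 to 465.9 and 255.6 to 496.5 CPM. None of the markers in these 4 lists was at 0 in any library. The top of the ependyma and choroid plexus range is GFP replicate 2, where Ttr alone read 784.3 CPM. In GFP replicates 1 and 3 Ttr read 115.5 and 27.5 CPM. The DESeq2 adjusted p was under 0.05 for 0 of 8 ependyma and choroid plexus markers. It was for 7 of 9 endothelial, 3 of 8 oligodendrocyte and 2 of 8 pericyte and smooth muscle markers, all lower. Beside the members that were higher, 6 of 8 cycling-cell markers were higher (124.2 to 167.1 against 211.3 to 734.4 CPM). The part of these cells in the members' differences was not tested.

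**Figure D4:**
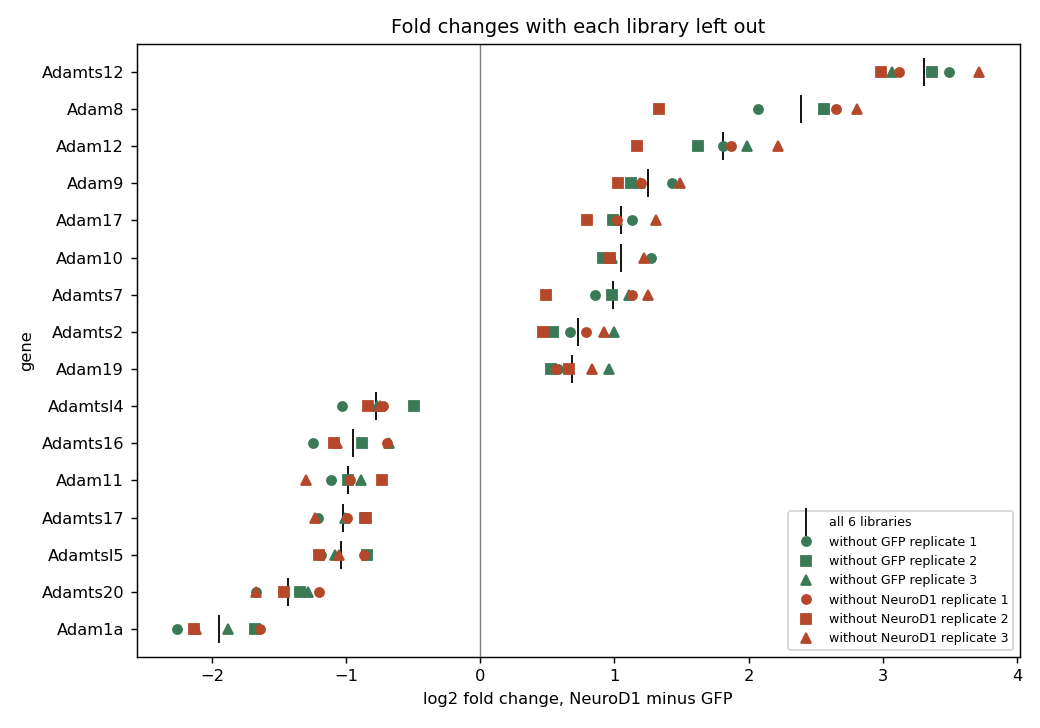
Log2 fold change (x axis) of the 16 members with an unadjusted edgeR p under 0.05, with all 6 libraries (black line) and with each library left out (coloured symbols). No symbol crosses 0, and leaving out NeuroD1 replicate 2 moves Adam8 farthest, from 2.39 to 1.33.

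NeuroD1 binds E-boxes, short sites of the form CANNTG, so the promoters of the 2 members with the largest fitted folds are shown with such matches in capitals. The windows are the 250 bases before the RefSeq start (GRCm38.p6), for the Adamts12 promoter at chr15:11064523-11064772 (plus strand) and for the Adam8 promoter at chr7:139992563-139992812 (minus strand), read 5′ to 3′ along the gene.
Adamts12: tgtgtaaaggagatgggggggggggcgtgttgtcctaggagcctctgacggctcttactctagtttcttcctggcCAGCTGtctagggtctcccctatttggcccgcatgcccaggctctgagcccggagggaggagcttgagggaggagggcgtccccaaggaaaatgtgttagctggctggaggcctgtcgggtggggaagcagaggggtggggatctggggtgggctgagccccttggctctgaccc
Adam8: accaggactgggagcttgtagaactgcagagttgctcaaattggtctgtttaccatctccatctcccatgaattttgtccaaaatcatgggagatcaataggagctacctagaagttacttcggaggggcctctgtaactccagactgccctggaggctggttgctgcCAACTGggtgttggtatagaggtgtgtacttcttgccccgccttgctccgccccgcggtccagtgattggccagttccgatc

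Each window held 1 match to CANNTG. The letters were CAGCTG for Adamts12. For Adam8 they were CAACTG. Such a match was present in 66.2% of all 32851 promoter windows of the same length and in those of 15 of the 22 tested members with a window. CAGATG, searched on both strands, was in 2 of the 22 (Adam19 and Adam23) against 14.4% of all windows. CAGCTG was in 8 of the 22 against 13% of all windows. Among them were Adam17, Adam19, Adamts2 and Adamts12 of the higher members and Adamts17 and Adamtsl5 of the lower. A member was counted if any of its windows matched, while the percentages count single windows. The shares are not like for like where a gene has several windows, and enrichment was not tested.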

How the data were processed

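Each value in the deposited table is a whole-number read count for 1 gene symbol in 1 of 6 libraries; the authors counted with featureCounts against an mm10 annotation, per the file headers. The submitters' processing notes list HISAT2 2.0.1, DESeq2 1.16.1 and GRCm38 but give no roles. How strand and multimapping reads were handled is not stated, nor the annotation release, so antisense and near-identical genes are uncertain. Columns were matched to samples by the description in the labels.

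The whole table was fitted with edgeR 4.0.16 in R 4.3.3 (TMM, filterByExpr with a minimum count of 10 and a minimum total of 15, treatment only, quasi-likelihood F-test, Benjamini-Hochberg adjustment over 14852 genes, threshold 0.05). Standard errors come from the F statistic. Alternatives were DESeq2 1.42.0 (its independent filtering tuned to 0.05), voom of limma 3.58.1, other scalings and filters, thinned counts, a replicate block, length and GC offsets, and each library left out. The fit was also run on counts simulated from its own dispersion estimates, which cannot show whether those estimates suit the real counts. Lengths, positions and coding sequences come from GENCODE M21, where 99.4% of tested genes matched; promoters come from RefSeq.

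Members and gene lists were chosen with earlier results of these data known. Values were given for members with an unadjusted p under 0.05, the 6 highest per length, 9 chosen by role, and the 3 genes of smallest p in each pathway list. Adamts8, Adamts10, Adamts14, Adamts15, Adamtsl1, Adam1b, Adam3, Adam28, Adam32 and Adam33 were named after their values were seen.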

Additional observations from a re-analysis of the deposited data

How the results depend on the processing

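DESeq2's Wald test gave 1366 genes and 10 members past the threshold, against 0 and 0 with edgeR. The replicate block gave 479 genes and 3 members (Adamts12, Adam1a and Adamts20, adjusted p = 0.0447 each; among the pathway genes named, Hapln2 0.0447, Thbs1 0.0455 and Cntnap2 0.0499). Samples of the same number deviated together with correlations of 0.539, 0.371 and 0.039. GFP replicate 3 correlated better with NeuroD1 replicate 2 (0.129) than with its own number. The labels do not say whether the numbers pair the samples, and these correlations cannot decide it. With a library left out, 0 to 1 genes (1 on leaving out NeuroD1 replicate 2) and 0 members passed. Members at an unadjusted p under 0.05 numbered 10 to 16 (6 to 11 higher, 4 to 9 lower). The low of 4 came on leaving out GFP replicates 2 or 3, or NeuroD1 replicate 1. The median lay between 0.08 and 0.27. Members without overlap numbered 14 to 21, but smaller groups separate more easily for any gene. The share over all genes was not counted for these fits. All 16 members with an unadjusted p under 0.05 kept their direction in every alternative run. Of the members whose fold changes are given and were refitted, signs turned for Adam3, Adam15, Adam22, Adam23, Adamts3, Adamts5, Adamts8, Adamts13 and Adamts14, none with an unadjusted p under 0.05 with all libraries; refits of Adam3, Adam33, Adamts8, Adamts10, Adamts14, Adamts15, Adamtsl1 and of the pathway genes were added after seeing the data. Adamts13 was at -0.0373 and Adamts14 at 0.0482 with limma-voom, Adamts8 at -0.0194 with thinned counts and Adamts5 at -0.00392 with the length and GC offsets. Leave-one-out ranges were -0.16 to 0.23 for Adam15, -0.34 to 0.18 for Adam22, -0.31 to 0.12 for Adam23, -0.18 to 0.69 for Adamts13, -0.27 to 0.28 for Adamts3, -0.0173 to 0.297 for Adamts8, -0.516 to 0.367 for Adamts14 and -0.0705 to 0.786 for Adam3. The cause was not tested. Adamts13 and the untested members rest on few counts or none.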
